A study of Mus musculus with 6 samples.

Results

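Cyclins of the D type, the CDK inhibitors that oppose them and the pocket proteins they act on form the gate through which a fibroblast leaves G1, and 10 of these genes were followed here. They are the D cyclins Ccnd1, Ccnd2 and Ccnd3, the CIP/KIP inhibitors Cdkn1a (p21) and Cdkn1b (p27), the INK4 inhibitors Cdkn2c (p18) and Cdkn2d (p19), and the pocket proteins Rb1, Rbl1 (p107) and Rbl2 (p130). The 10 genes were chosen by name, with earlier results of these data known, out of 23536 genes with a symbol and at least 1 probe. Every probe whose listed RefSeq transcript belongs to one of them was used, which gave 16 probes. All 16 were well above background on all 6 arrays. For Ccnd2, Ccnd3, Cdkn1a, Rb1 and Rbl1 there were several probes, and for the other 5 genes there was 1.

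The arrays measured total RNA of NIH3T3 cells, an established line of mouse embryonic fibroblasts, kept in medium with 2% fetal bovine serum. The 3 GGCT arrays held RNA of cells made to express GGCT stably with the retroviral vector pCX4bsr, and the 3 control arrays held RNA of cells given the empty control vector. GGCT is gamma-glutamylcyclotransferase, an enzyme of glutathione turnover. Both groups thus carried a retroviral vector and differed, per the labels, in its insert. The sample titles number the experiments 1 to 3 in each group, and the labels describe 1 establishment of stable cells and leave unsaid if each experiment had its own. The p-values accordingly reflect how far arrays of a group lay apart, which may be technical. From which species the GGCT insert came was not stated in the labels.

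In G1, D cyclins bind CDK4 and CDK6 and the complex phosphorylates the RB family. INK4 proteins bind CDK4 and CDK6 and keep them from D cyclins, whereas CIP/KIP proteins inhibit cyclin E and cyclin A complexes with CDK2 and also help D cyclins assemble with their kinases. Hypophosphorylated pocket proteins hold E2F factors and repress genes of DNA synthesis; RB prefers the activating E2Fs, while p107 and p130 pair with E2F4, E2F5 and the MuvB core in the DREAM complex of resting cells. Serum, density and matrix attachment are known to set D cyclin and p27 levels in fibroblasts.

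Promoter sequences are shown for the members whose RNA passed the test and for which a sequence was at hand. RefSeq promoter windows of 300 bases (250 before to 50 after an annotated start) on GRCm38.p6 were found for 7 of the 10 members, and Ccnd3, Cdkn1a and Cdkn2c have 2 starts each. Ccnd1, Ccnd2 and Rb1 have no entry. Capitals mark matches to E2F sites, GC boxes and the p53 consensus decamer, each sequence being written 5′ to 3′ on the strand of its gene. They cover Rbl1 at chr2:157204485-157204784 (minus strand), Cdkn2c at chr4:109666707-109667006 (minus strand), Cdkn2d at chr9:21291160-21291459 (minus strand) and Cdkn1a at chr17:29090729-29091028 and chr17:29093519-29093818 (plus strand).
Rbl1: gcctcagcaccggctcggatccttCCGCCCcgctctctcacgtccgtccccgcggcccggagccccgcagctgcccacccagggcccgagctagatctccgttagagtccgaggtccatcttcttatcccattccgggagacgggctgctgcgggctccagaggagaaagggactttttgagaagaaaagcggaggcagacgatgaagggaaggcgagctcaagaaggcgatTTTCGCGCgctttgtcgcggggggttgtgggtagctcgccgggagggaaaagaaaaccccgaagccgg
Cdkn2c, upstream start: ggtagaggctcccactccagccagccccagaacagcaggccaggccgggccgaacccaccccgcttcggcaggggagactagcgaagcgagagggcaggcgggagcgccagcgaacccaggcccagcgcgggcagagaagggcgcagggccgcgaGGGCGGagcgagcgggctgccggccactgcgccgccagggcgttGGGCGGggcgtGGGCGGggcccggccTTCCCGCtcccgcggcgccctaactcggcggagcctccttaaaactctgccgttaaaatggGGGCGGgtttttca
Cdkn2d: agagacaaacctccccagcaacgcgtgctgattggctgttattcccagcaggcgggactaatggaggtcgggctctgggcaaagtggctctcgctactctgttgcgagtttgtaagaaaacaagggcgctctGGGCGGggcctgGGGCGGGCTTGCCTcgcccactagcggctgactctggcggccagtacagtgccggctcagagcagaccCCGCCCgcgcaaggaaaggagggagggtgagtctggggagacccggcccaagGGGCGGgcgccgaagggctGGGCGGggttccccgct
Cdkn1a, upstream start: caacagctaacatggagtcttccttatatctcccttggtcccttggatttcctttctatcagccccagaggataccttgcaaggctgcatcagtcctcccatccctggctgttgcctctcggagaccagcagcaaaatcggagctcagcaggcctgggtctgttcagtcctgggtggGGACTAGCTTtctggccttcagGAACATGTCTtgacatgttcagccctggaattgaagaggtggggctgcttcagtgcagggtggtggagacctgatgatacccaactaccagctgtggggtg
Cdkn1a, downstream start: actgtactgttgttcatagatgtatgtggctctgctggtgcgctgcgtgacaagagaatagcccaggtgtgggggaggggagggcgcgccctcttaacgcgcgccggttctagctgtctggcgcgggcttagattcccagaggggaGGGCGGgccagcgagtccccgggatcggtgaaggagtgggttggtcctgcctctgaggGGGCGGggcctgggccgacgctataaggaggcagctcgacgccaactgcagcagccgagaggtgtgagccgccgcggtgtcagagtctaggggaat

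The Rbl1 window holds the E2F letters TTTCGCGC beginning 18 bases before the start. Of the 32841 RefSeq promoter windows, 2.27% hold 1 of the 8-letter E2F sequences searched on both strands (TTTCCCGC, TTTGGCGC, TTTGCCGC and TTTCGCGC). In the upstream Cdkn2c window the shorter E2F sequence TTCCCGC begins 25 bases before the start. That sequence and TTGGCGC, which lie inside some of the longer ones, occur in 6.81% of the windows. The GC box GGGCGG, the sequence bound by SP1, occurs in 35.7% of windows; it was found 1 time in the Rbl1 window, 226 bases before the start, 4 times in the upstream Cdkn2c window, 5 times in that of Cdkn2d and 2 times at the downstream start of Cdkn1a. The upstream Cdkn1a window holds 2 matches to the p53 decamer, beginning 73 and 51 bases before the start, and the Cdkn2d window holds 1 at 102 bases, which overlaps a GC box. Of all windows, 8.36% hold such a decamer. The windows not printed hold GC boxes only (2 at each start of Ccnd3, 1 each in Cdkn1b and Rbl2) or, at the downstream start of Cdkn2c, none of these letters. A match is a run of letters and was not tested as a binding site.

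Signal at the 75th percentile ranged from 380 to 470.5 over the 6 arrays, 54.6% to 61.7% of probes were well above background, and no spot was saturated. The arrays of experiment 1 were on one slide and those of experiments 2 and 3 on another, 1 scan number per slide. The probe for mouse Ggct read -0.57, -0.72 and -0.66 on the control arrays and -0.14, 0.20 and -0.16 on the GGCT arrays of experiments 1, 2 and 3 (log2 signal relative to the 75th percentile of the array, the scale of all levels given here). It was 0.62 ± 0.12 (SE) higher, 1.53-fold (limma, adjusted p = 0.0111, n = 3 per group). A probe for the mouse transcript need not detect an inserted sequence in full. Of 10 fibroblast markers 9 were well above background on all 6 arrays (all but Fap), and their summed linear signal was 1660 to 1980 times the 75th percentile in controls and 1250 to 1570 times in GGCT cells, with 1 higher and 5 lower of the 9 tested. The epithelial genes Cdh1 and Epcam, the endothelial genes Tek, Emcn and Kdr, and the leukocyte gene Ptprc failed the background criterion on all 6 arrays. On all 6 arrays, 2 of 5 epithelial (Krt8 and Krt14), 1 of 5 endothelial (Pecam1) and 3 of 5 blood cell markers (Itgam, Cd3e and Cd68) met it. Of those tested, Krt8 was 2.26-fold higher (limma, adjusted p = 0.0125), Krt14 2.76-fold lower (adjusted p = 0.00405), Pecam1 1.35-fold higher (adjusted p = 0.0479) and Cd68 1.2-fold lower (adjusted p = 0.0451). Their log2 differences were 1.18, -1.46, 0.43 and -0.27 in that order. With background taken off by normexp in place of the scanner's own correction, they were 0.57, -0.63, 0.17 and -0.23. Summed signals were 0.31 to 0.323 against 0.29 to 0.407 for 5 epithelial markers and 0.145 to 0.181 against 0.244 to 0.284 for 5 endothelial markers. For 5 blood cell markers they were 23.8 to 32.6 against 23.5 to 29.2. Cdh5 passed background on the 3 GGCT arrays only. Set against the lowest signal called well above background on each control array, Cdh5 was 2.18-fold higher. With background taken off by normexp instead, its log2 difference was 0.41, so its size depends on the background correction. The part of these cell type markers in the results below was not tested, and in bulk RNA fewer cells of a kind and less RNA per cell cannot be told apart.

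With GGCT, RNA of the D cyclins Ccnd1 and Ccnd2 and of the inhibitor Cdkn1a fell, while the INK4 inhibitors Cdkn2c and Cdkn2d and the pocket protein gene Rbl1 rose. Ccnd3, Cdkn1b, Rb1 and Rbl2 did not pass the test. Thus 3 of the 10 genes were higher and 3 lower at an adjusted p under 0.05 (limma, Benjamini-Hochberg over 23774 genes or unnamed transcripts), against a background of 17.5% higher, 17.3% lower and 34.8% in either direction among everything tested. Control and GGCT arrays did not overlap for 8 of the 10 genes, compared with 49.3% of everything tested. The median difference of the 10 genes was 0.23 and that of everything tested 0.02. Fitted with the experiment number as a block, 6 of the 10 were higher and 3 lower, beside 27.3% higher, 26.1% lower and 53.4% in all among everything tested. By probe, 5 of 16 were higher and 5 lower, beside 17.7% and 17.5% of 31110 probes. The members were chosen with earlier results of these data known, so their counts are no independent test. With both arrays of replicate 3 left out, the numbers of member genes higher and lower were each 0 and those of member probes each 1. Over everything tested in that setting, 692 of 24894 genes were higher and 1089 lower, and 1003 of 32477 probes higher and 1518 lower. With both arrays of replicate 2 left out, Cdkn1a (limma, adjusted p = 0.089) and Rbl1 (adjusted p = 0.0987) no longer passed. Of the member probes 3 were then lower. Over everything tested in that setting, 1316 of 24094 genes were higher and 1642 lower, and 2146 of 31497 probes were lower. No array left out alone ended any of the 6 gene calls.

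**Figure D1:**
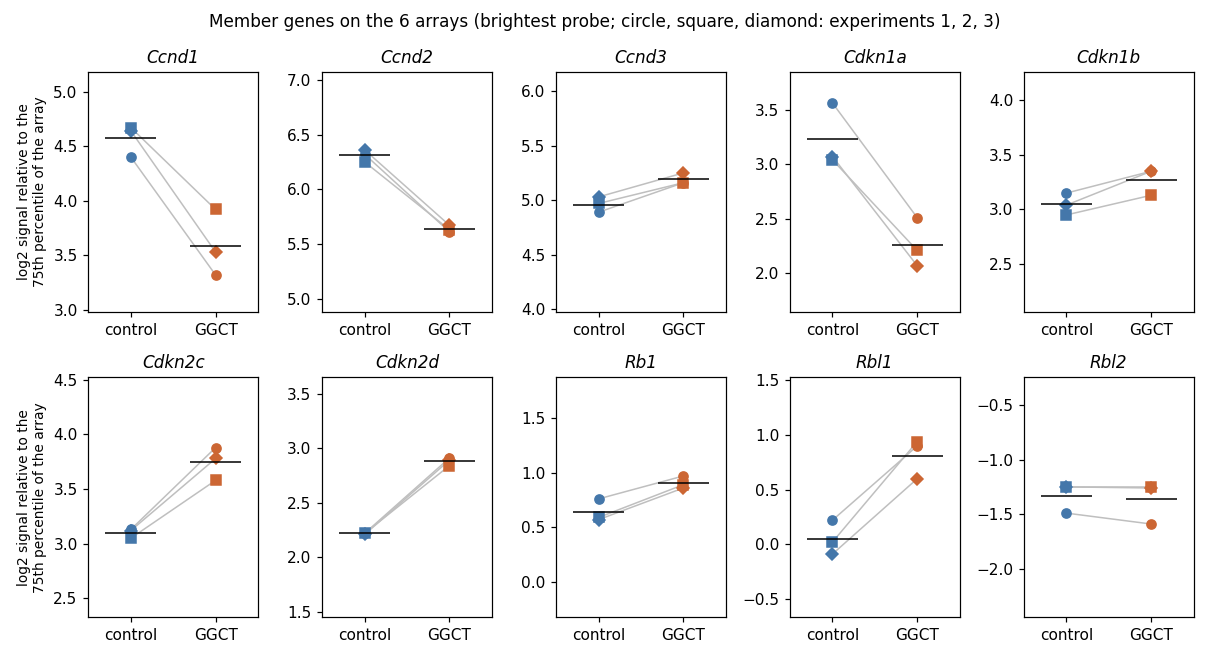
Log2 signal of the brightest probe of each of the 10 genes, relative to the 75th percentile of the array (y axis), on the 3 control and 3 GGCT arrays; marks of 1 shape joined by a line share an experiment number, horizontal bars are group means, and every panel spans the same range. Control and GGCT arrays separate downward for Ccnd1, Ccnd2 and Cdkn1a, separate upward by 0.65 to 0.77 for Cdkn2c, Cdkn2d and Rbl1, and overlap for Cdkn1b and Rbl2.

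Among the D cyclins, which carry mitogen signals to CDK4 and CDK6, Ccnd1 read 4.40, 4.67 and 4.64 on the control arrays and 3.32, 3.92 and 3.53 on the GGCT arrays of experiments 1, 2 and 3. Every GGCT array lay below every control array, and the GGCT arrays were the more spread out (SD 0.31 against 0.15, n = 3 each). The difference was -0.98 ± 0.17 (SE), 1.97-fold lower (limma, adjusted p = 0.00766). It was -1.08 on slide 1 and -0.93 on slide 2.

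Ccnd2, the D cyclin best known from ovary and lymphocytes, read 6.32, 6.25 and 6.36 in controls and 5.61, 5.63 and 5.67 with GGCT at its brighter probe. The 2 groups were each tight, with SDs of 0.05 and 0.03, and lay apart. The difference was -0.67 ± 0.08, 1.6-fold lower (limma, adjusted p = 0.00155). Its other probe read 4.09, 3.95 and 4.07 in controls and 3.59, 3.42 and 3.52 with GGCT, a difference of -0.53 ± 0.09 (limma over probes, adjusted p = 0.00616). Both probes therefore fell on every GGCT array relative to every control array.

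Ccnd3, the D cyclin found most widely across tissues, read 4.89, 4.97 and 5.03 in controls and 5.16, 5.16 and 5.25 with GGCT. The groups did not overlap, yet the difference of 0.23 ± 0.08 did not pass (limma, adjusted p = 0.0737; 95% interval 0.03 to 0.43 before adjustment). Its other probe read 4.69, 4.84 and 4.89 against 4.93, 5.08 and 5.08, a difference of 0.22 ± 0.10 (limma over probes, adjusted p = 0.117). With the experiment number as a block both passed, at adjusted p = 0.0258 for the first and 0.0262 for the second.

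Within an array, the log2 distance from Ccnd1 to Ccnd3 was 0.49, 0.30 and 0.39 in controls and 1.84, 1.23 and 1.71 with GGCT. It widened by 1.21, and the one from Ccnd2 to Ccnd3 shifted by 0.90; neither overlapped between groups (exact permutation test, two-sided, p = 0.1 for each, the smallest that 3 against 3 arrays allow). The distance between Ccnd2 and Ccnd1 shifted by 0.30 with overlapping groups (exact p = 0.3). These 3 distances belong to 13 that were chosen after the values had been seen, and adjusted over the 13 no exact p was below 0.163.

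Cdkn1a encodes p21, the CIP/KIP inhibitor that p53 induces. Its brighter probe read 3.56, 3.04 and 3.07 in controls and 2.51, 2.21 and 2.07 with GGCT. The control array of experiment 1 was the highest of its group and the GGCT array of that experiment the highest of the other, with no overlap between groups. The difference was -0.96 ± 0.19, 1.95-fold lower (limma, adjusted p = 0.0105), -1.05 on slide 1 and -0.92 on slide 2.

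The second Cdkn1a probe, which the files list under another transcript of the gene, read -0.75, -0.62 and -0.83 in controls and -2.40, -2.44 and -2.25 with GGCT. Here the groups stood far apart against SDs of 0.10 in each. The difference was -1.63 ± 0.10, 3.1-fold lower (limma over probes, adjusted p = 0.000151). With background taken off by normexp in place of the scanner's own correction, the 2 probes gave -0.90 and -1.17. The distance between the probes within an array shifted by -0.67 without overlap (exact permutation p = 0.1, and 0.163 adjusted over the 13 distances). Which transcripts each probe detects was not tested, since no probe sequence was used here.

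Cdkn1b encodes p27, the CIP/KIP inhibitor that accumulates in resting and serum-starved cells. It read 3.15, 2.95 and 3.04 in controls and 3.35, 3.13 and 3.35 with GGCT. The GGCT array of experiment 2 lay just under the control array of experiment 1, so the groups overlapped, although GGCT was the higher within each experiment by 0.20, 0.18 and 0.31. The difference of 0.23 ± 0.10 did not pass (limma, adjusted p = 0.138; 95% interval -0.02 to 0.47 before adjustment), and did once the experiment number was blocked (adjusted p = 0.0326). Between the 2 CIP/KIP members the within-array distance, Cdkn1b minus Cdkn1a, went from a mean of -0.18 ± 0.20 (SD) to 1.01 ± 0.24. That shift of 1.19 came with no overlap (n = 3, exact permutation p = 0.1). This distance is also among the 13 chosen after the values had been seen (exact permutation test, adjusted p = 0.163).

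The INK4 inhibitors act on CDK4 and CDK6 alone. Cdkn2c, which encodes p18, read 3.13, 3.05 and 3.12 in controls and 3.88, 3.58 and 3.78 with GGCT. The 3 controls lay close together (SD 0.05, against 0.15 for the GGCT arrays) and all GGCT arrays were above them. The difference was 0.65 ± 0.10, 1.57-fold higher (limma, adjusted p = 0.00509).

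Cdkn2d, which encodes p19 of the INK4 family, read 2.22, 2.22 and 2.21 in controls and 2.91, 2.84 and 2.89 with GGCT. Its SDs of 0.01 and 0.03 were small beside the difference of 0.66 ± 0.07, 1.58-fold (limma, adjusted p = 0.00135). The rise was 0.69, 0.63 and 0.68 in experiments 1, 2 and 3. The within-array distance between both INK4 members shifted by 0.01 with overlapping groups (exact permutation p = 0.8).

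The remaining CDK inhibitors of these 2 families were dim. Cdkn1c, which encodes p57 and is imprinted, was well above background on no control array and on all 3 GGCT arrays, where it read -3.85, -3.97 and -4.02. Set against the lowest signal called well above background on each control array, it was 1.92-fold higher. That value is not a firm minimum, because the size depends on the background correction. Cdkn1c entered the test through the GGCT arrays alone. Its adjusted p of 0.000416 in limma belongs to the fitted difference from control signals below background, not to the 1.92-fold value. Under normexp its difference was 0.35 (adjusted p = 0.0223). Cdkn2a and Cdkn2b, the INK4 genes of the locus that is often lost in immortal lines, did not reach the background criterion with any of their 2 probes each on any of the 6 arrays.

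Of the pocket protein genes, Rb1 encodes the retinoblastoma protein. It read 0.76, 0.59 and 0.57 in controls and 0.97, 0.89 and 0.86 with GGCT at its brighter probe. GGCT arrays lay above all controls by a narrow margin, and the difference of 0.27 ± 0.09 did not pass (limma, adjusted p = 0.062). It passed once the experiment number was blocked (adjusted p = 0.0176). Leaving out the control array of replicate 1 gave 0.33, which passed (limma, adjusted p = 0.0485). Leaving out any other single array did not bring a pass (limma, adjusted p from 0.118 to 0.206). Its other probe read -2.20, -1.53 and -1.76 against -1.84, -1.62 and -1.43. These values overlapped, with a difference of 0.20 ± 0.20 that passed in neither fit (limma over probes, adjusted p = 0.484, and 0.209 with the block).

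Rbl1 encodes p107, the pocket protein of cycling cells and itself a known E2F target. It read 0.22, 0.02 and -0.09 in controls and 0.90, 0.94 and 0.60 with GGCT at its brightest probe. All GGCT arrays exceeded all controls, by 0.77 ± 0.13 on average, 1.7-fold (limma, adjusted p = 0.00694). This is the gene whose promoter window, printed above, holds an 8-letter E2F match next to the start.

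Both further Rbl1 probes, listed under another transcript, moved the same way. One read -3.10, -3.51 and -3.22 against -2.13, -2.09 and -2.25, a difference of 1.12 ± 0.13 (limma over probes, adjusted p = 0.00147), and the other read -4.64, -4.22 and -4.32 against -3.48, -2.99 and -3.47, a difference of 1.08 ± 0.18 (adjusted p = 0.00563). Neither overlapped between groups. Normexp gave 0.71 for the brightest probe but 0.52 and 0.34 for these dimmer ones, so their size depends on the background correction, with the same direction in both settings.

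Rbl2 encodes p130, the pocket protein of resting cells. It read -1.49, -1.25 and -1.25 in controls and -1.59, -1.25 and -1.26 with GGCT. Experiment 1 was lower than the others in both groups and the groups overlapped throughout. The difference was -0.03 ± 0.13 (limma, adjusted p = 0.874), with a 95% interval from -0.35 to 0.28. With the experiment number blocked it was -0.03 ± 0.05 (adjusted p = 0.633). Within arrays, Rbl1 shifted by 0.80 relative to Rbl2 and by 0.50 relative to Rb1, both with no overlap (exact permutation p = 0.1 each). Both distances are among the 13 chosen after the values had been seen (exact permutation test, adjusted p = 0.163).

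**Figure D2:**
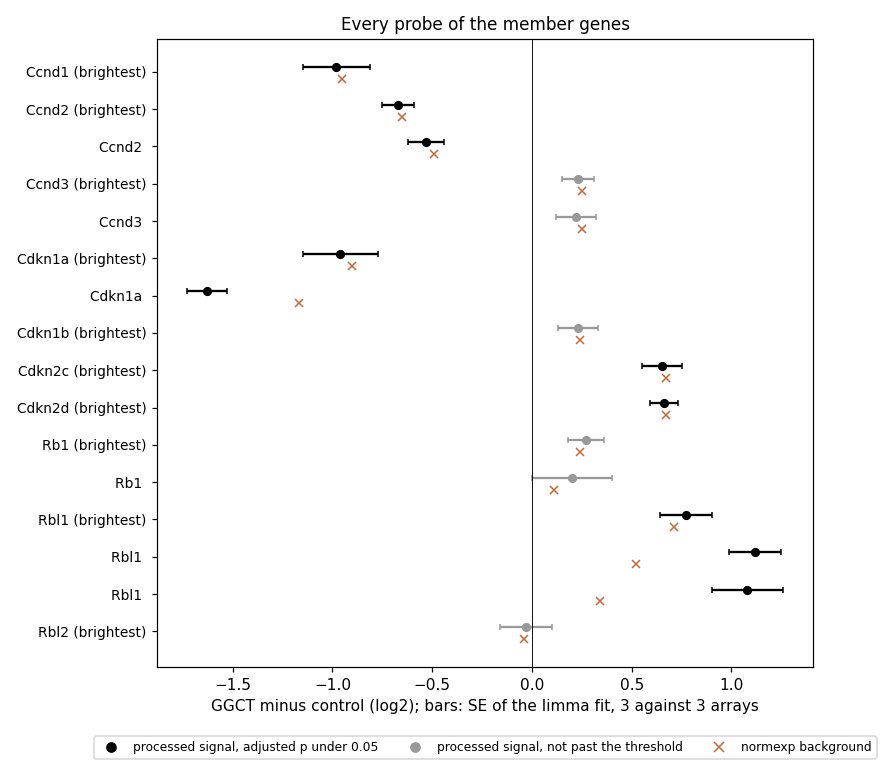
Difference between GGCT and control arrays (log2, x axis) for each of the 16 probes, with the SE of the fit over 3 against 3 arrays; crosses give the same difference after normexp background correction. All probes of a gene lie on 1 side of 0, and the crosses lie clearly nearer to 0 than the circles for the dim probes of Rbl1 (1.12 and 1.08 became 0.52 and 0.34), Rb1 (0.20 became 0.11) and Cdkn1a (-1.63 became -1.17).

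Genes that work with these members were then counted from lists chosen for their roles. The lists were chosen with earlier results of these data known, so their counts are no independent test. Among kinases, cyclins and activators of G1, 10 of 11 were tested, 5 rose and 2 fell (5 and 3 with the experiment number as a block), and the median difference was 0.39. For this and the lists that follow, the shares over everything tested are those given above: 17.5% higher, 17.3% lower and 34.8% in all, or 27.3%, 26.1% and 53.4% with the block. Ccna2 (cyclin A2, the S phase partner of CDK2) rose by 1.01 ± 0.12 (limma, adjusted p = 0.00174), Cdk2 by 0.70 ± 0.10 (adjusted p = 0.00353; 0.34 under normexp) and Cdk6, a partner of the D cyclins, by 0.63 ± 0.08 (adjusted p = 0.00196). Cdk4, which the D cyclins also bind, differed by 0.22 ± 0.09 and did not pass (limma, adjusted p = 0.128). Cdk4 is named here after its values had been seen. Ccnh, the cyclin of the CDK-activating kinase, fell by 0.82 with an SE of 0.07 (adjusted p = 0.000643). The calls thus went both ways in this list, as they did among the members.

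Of 10 E2F and DP factors 9 were tested, 6 rose and 0 fell (0 also at an unadjusted p under 0.05 in limma), at a median of 0.47; with the block 7 rose and 0 fell. The atypical repressors E2f8 and E2f7 differed by 1.23 ± 0.11 (limma, adjusted p = 0.000737) and 0.86 ± 0.16 (adjusted p = 0.0082; 0.48 and adjusted p = 0.0735 for the mean of its probes). The activator E2f2 rose by 0.80 ± 0.09 (adjusted p = 0.00184) and E2f5, a partner of the pocket proteins p107 and p130, by 0.77 ± 0.09 (adjusted p = 0.00199). All 3 control arrays lay below all 3 GGCT arrays for 6 of the 9; over everything tested, 49.3% did not overlap in either direction.

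Of the 8 genes of the MuvB core and its partners, which together with pocket proteins or MYB factors switch cell cycle genes off and on, 4 rose and 0 fell (0 also at an unadjusted p under 0.05 in limma), at a median of 0.44; with the block 5 rose and 0 fell. Lin9, a core subunit, rose by 0.97 ± 0.16 (limma, adjusted p = 0.00638) and Lin54, the DNA-binding subunit, by 0.63 ± 0.10 (adjusted p = 0.00516). The mitotic activators Foxm1 and Mybl2 rose by 0.81 ± 0.13 (adjusted p = 0.00464) and 0.70 ± 0.14 (adjusted p = 0.0107). The other 4 members of the list lay at 0.24 or less.

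Among 21 E2F target genes of DNA replication, 14 rose, beside 17.5% of everything tested, and 0 fell (0 also at an unadjusted p under 0.05 in limma), at a median of 0.57. With the block 17 rose and 0 fell, beside 27.3% higher over everything tested. Uhrf1, which couples DNA methylation to replication, rose by 0.96 ± 0.10 (limma, adjusted p = 0.00127), and the licensing factor Cdc6 by 0.94 ± 0.11 (adjusted p = 0.00172). Mcm10, which helps start replication forks, rose by 0.86 ± 0.12 (adjusted p = 0.00325). For the chromatin assembly subunit Chaf1a the brightest probe rose by 1.00 ± 0.12 (adjusted p = 0.0022), and the mean of its probes gave 0.39 (adjusted p = 0.0986). The range over the list was -0.16 to 1.00, and 18 of the 21 did not overlap between groups, compared with 49.3% of everything tested.

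Genes that turn over D cyclins and CIP/KIP inhibitors were tested for 14 of 15 (all but Ddb1), of which 4 rose and 2 fell at a median of 0.22; with the experiment number as a block 8 rose and 4 fell. Fbxo31, the F-box protein known to direct cyclin D1 breakdown after DNA damage, fell by 0.85 with an SE of 0.09 (limma, adjusted p = 0.00129). Dtl, the substrate receptor for p21 in S phase, rose by 0.89 ± 0.10 (adjusted p = 0.00164). For the p27 ligase, Cks1b rose by 0.59 ± 0.11 (adjusted p = 0.00879) and Skp2 by 0.40 ± 0.09 (adjusted p = 0.0156). Skp2 did not pass without the control array of replicate 2 (adjusted p = 0.0511), without that of replicate 3 (0.0728) or without the GGCT array of replicate 3 (0.0599).

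Of 13 regulators of D cyclin and CIP/KIP transcription 12 were tested, 1 rose and 3 fell, at a median of -0.03; with the block 2 rose and 5 fell. These 4 calls of 12, and 7 of 12 with the block, are near the shares over everything tested (34.8% and 53.4%), so the counts set the regulators apart in neither fit. Ctnnb1 (beta-catenin, a co-activator at TCF sites) fell by 0.43 with an SE of 0.08 (limma, adjusted p = 0.00804), and Klf4, an activator of p21, fell by 0.60 with an SE of 0.11 (adjusted p = 0.00825). Smad3, which carries TGF-beta signals, fell by 0.39 with an SE of 0.08 (adjusted p = 0.0155), and Tcf7l2, a DNA-binding partner of beta-catenin, rose by 0.44 ± 0.11 (adjusted p = 0.0235). Smad3 did not pass without the control (adjusted p = 0.0575) or the GGCT array of replicate 3 (0.0594). Tcf7l2 did not without the control arrays of replicate 2 (0.0694) or 3 (0.094), without the GGCT array of replicate 3 (0.0766) or for the mean of its probes (0.0574). Trp53, whose product is the best-known activator of Cdkn1a, differed by -0.09 ± 0.10 (adjusted p = 0.543) and is named here after its values had been seen.

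**Figure D3:**
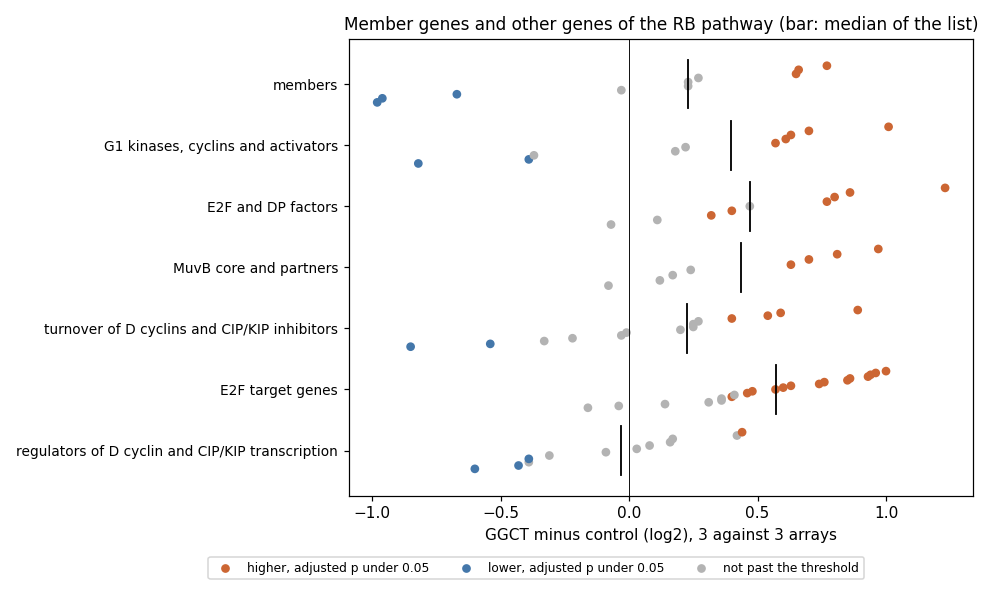
Difference between GGCT and control arrays (log2, x axis) for each tested gene of the 10 members and of 6 lists of pathway genes, 3 against 3 arrays; colour gives direction where the adjusted p was under 0.05, black bars are list medians. No E2F or DP factor, MuvB gene or E2F target passed as lower, whereas the members, the G1 list, the turnover list and the regulators hold calls on both sides of 0.

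Over the 6 arrays, the tested genes whose values ran most closely with Ccnd2 were Stmn2 (r = 0.9999), Mras (r = 0.9995) and Ahr (r = 0.9992). For Cdkn2d they were Rnpepl1 (r = 0.9997), Eml5 (r = 0.9997) and Sfmbt2 (r = 0.9994), and for Rbl1 Lrr1 (r = 0.9984), Cgas (r = 0.9984) and Cbx5 (r = 0.9982). These are Pearson correlations over 3 control and 3 GGCT arrays that share slides, so any gene that differs sharply between the groups scores high: of 14055 genes, 1840 exceeded 0.95 with Ccnd2, 1293 with Cdkn2d and 905 with Rbl1.

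**Figure D4:**
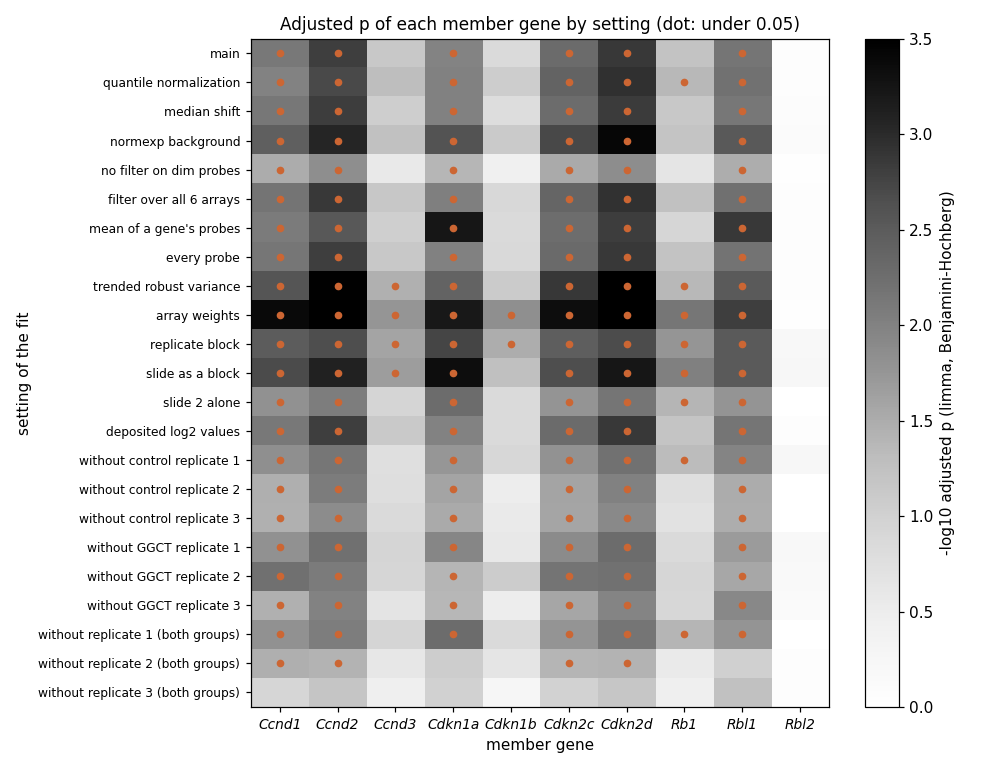
Adjusted p (limma, Benjamini-Hochberg, as -log10 in grey) of each member gene (columns) under the reported fit and its 22 alternatives (rows); an orange dot marks an adjusted p under 0.05. Dots fill the columns of Ccnd1, Ccnd2, Cdkn1a, Cdkn2c, Cdkn2d and Rbl1 except where both arrays of replicate 3, or for Cdkn1a and Rbl1 also of replicate 2, were left out, and the column of Rbl2 holds none.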

How the data were processed

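Per the file headers, the authors extracted spot intensity with Agilent Feature Extraction 12.1.0.3, which subtracts background within each array. The deposited table of the series is on a log2 scale, and every column matched log2 processed intensity less 1 constant per array (r = 1 over 16401 probes brighter than 200 on every array), with column medians from -3.87 to -3.69. Its direction and scale follow from that match, and how the constant was set is not given in the sources.

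From the scanner files, 3671 of 62976 spots per array were controls and left out, as were 578 outlier spots over the 6 arrays. Of 56605 probes 35 lacked a value on some array; 34504 of the 56570 used were named through the listed accession and RefSeq. Levels are log2 processed signal minus the 75th percentile of the array. Per gene the brightest probe was taken, and it entered the test when it exceeded background clearly on all 3 arrays of a group; a second fit took every probe. Tests used limma 3.58.1 in R 4.3.3 (lmFit, eBayes, two-sided, Benjamini-Hochberg over everything tested, adjusted p under 0.05) and had no block in the reported fit. On simulated data with 50 genes changed at each size, the fit recovered 10% of changes of 0.5 (log2) and 52% of changes of 1. Far fewer genes changed in that simulation than were called in the data. All 3 same-numbered pairs deviated together (r = 0.731, 0.453 and 0.358 over genes), so blocked values stand beside member calls and list counts they change; the numbers come from the titles, and the labels do not say what they share. Experiment 1 also is slide 1. Slide 2 pairs of different number correlated at 0.299 and 0.342. The number of arrays limits the precision.

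The members and lists were chosen with earlier results of these data known. Named genes are all members, the other CDK inhibitors, up to 4 genes of smallest p per list, Ggct and the 3 closest genes by correlation for 1 member per family. Cdk4 and Trp53 were added after their values had been seen. Alternatives changed the normalization, background, probe filter, probe choice, variance model, block, slide and arrays included. Promoter windows came from a RefSeq table on GRCm38.p6.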

Additional observations from a re-analysis of the deposited data

How the results depend on the processing

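Under 22 alternatives of the fit by gene, Ccnd1, Ccnd2, Cdkn1a, Cdkn2c, Cdkn2d and Rbl1 kept their direction, and lost the call only where both arrays of replicate 3 or, for Cdkn1a and Rbl1, of replicate 2 were left out. The reported 3 member genes higher became 6 with array weights, 6 with the replicate block, 5 with trended robust variance and 5 with slides blocked. Among all 23774 tested, the number higher went from 4164 to 6633, 6490, 4348 and 6562 in those settings. Over the settings that left out arrays, the members higher ran from 0 to 4, and the 3 lower from 0 to 3. Over everything tested, those counts ran from 692 to 4573 higher and from 1089 to 4539 lower. For probes, only counts were compared, under 20 alternatives. The 5 member probes higher became 9 with array weights, 9 with the replicate block and 8 with slides blocked. Among all 31110 probes tested, the number higher went from 5511 to 8578, 8521 and 8598 in those settings. With arrays left out, the member probes higher ran from 1 to 6 and the 5 lower from 1 to 5. Over all probes tested, those counts ran from 1003 to 6089 higher and from 1518 to 6043 lower. Ccnd3 gained a call in 4 alternatives, Cdkn1b in 2 and Rb1 in 8. The replicate block changed no other call among the members. Rbl2, which never passed, turned from -0.03 to 0.00 on slide 2 alone (the same arrays as without replicate 1) and to between 0.00 and 0.08 without control replicate 2 (0.01), control replicate 3 or GGCT replicate 1 (0.08), and was -0.11 without control replicate 1; the cause was not tested. Of 26 other named genes 19 lost the call in at least 1 alternative and 0 reversed. Leaving out arrays reduces the samples behind each fit. Signal near background limits the size of differences for the dim probes of Rbl1 and Cdkn1a and for Cdkn1c, Cdk2, Cdh5, Krt8, Krt14 and Pecam1.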
